A study of Mus musculus with 3 samples.

Results

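The regions described here are the places at the starts of protein-coding genes where DNA carrying 5-hydroxymethylcytosine (5hmC) was pulled down from mouse cerebellum. The peaks of 3 immunoprecipitation libraries were merged wherever they shared at least 1 bp, and a merged region was kept when its midpoint lay within 1 kb, on either side, of the transcription start of any protein-coding transcript (GENCODE M39, GRCm39). This kept 914 of the 13285 merged regions on chromosomes 1 to 19 (6.88%), on position alone and without use of any modification call. Bases within 1 kb of the 64447 distinct starts made up 2.82% of the same chromosomes, so the share of regions there was 2.44-fold higher than the share of bases.

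All 3 libraries came from genomic DNA of cerebellum of an 8-week-old female C57Bl6Cr mouse, with no treatment and no second condition. The DNA was sonicated in 3 separate reactions, precipitated with an antibody against 5hmC (hMeDIP) and sequenced directly, without amplification, on nanopore flow cells, so that each CpG of a read could be called as 5hmC, 5-methylcytosine (5mC) or unmodified C. Replicate 1 used a whole-serum antibody, and replicates 2 and 3 used an IgG-purified antibody against the same modification. The library names point to a single cerebellum, so the spread between replicates covers the precipitation and the sequencing and not differences between animals.

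In DNA, 5mC is oxidised to 5hmC by the TET enzymes, and neurons hold more 5hmC than most other cells. The mark is known to collect in the bodies of active genes and in the flanks of CpG islands, whereas the islands themselves, which cover the promoters of many housekeeping and developmental genes, are usually kept free of both modifications. The cerebellum consists mainly of granule neurons, with far fewer Purkinje cells and glia.

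The peak lists of the 3 replicates differed widely in length, with 497, 8546 and 5166 entries. Replicate 1 had a peak in 43 of the gene-start regions, replicate 2 in 582 and replicate 3 in 377. Gene starts accounted for 8.78%, 6.85% and 7.34% of the regions of replicates 1, 2 and 3. Base-calls in the gene-start regions numbered 3912, 7752 and 6457, at 3098, 5567 and 4510 CpG sites, and the median called site had 1 call in each replicate. Of the 10525 CpGs in these regions 8889 (84.5%) had a call in some replicate. A call was present in 872 of the 914 regions, 541 had at least 10 calls over the 3 replicates, 265 had at least 20, and 42 had none, 3 of them because they contain no CpG. Neighbouring CpGs are often read on the same molecule, so the exact 95% binomial intervals given for single regions cover counting error only and are too narrow where few molecules were read.

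Sequences from 5 of these regions show what the 3 states look like at gene starts. Each is read from GRCm39 on the forward strand, outside any untranslated exon, and capitals mark the CpGs at which more than 50% of the summed calls had the state named. Kcnj11 is shown because, of the regions with a peak in all 3 replicates, its own had the most calls, Sema4d and Mpdu1 for 5hmC, Mex3d for 5mC and Meiosin for unmodified C. The stretches lie at chr7:45748342-45748581 (Kcnj11, coding exon, 5hmC), chr13:51933527-51933766 (Sema4d, intron, 5hmC), chr11:69553806-69554045 (Mpdu1, upstream of the canonical start, 5hmC), chr10:80217436-80217675 (Mex3d, coding exon at the midpoint of the region, 5mC) and chr7:18852294-18852533 (Meiosin, upstream of the canonical start, unmodified C).
Kcnj11: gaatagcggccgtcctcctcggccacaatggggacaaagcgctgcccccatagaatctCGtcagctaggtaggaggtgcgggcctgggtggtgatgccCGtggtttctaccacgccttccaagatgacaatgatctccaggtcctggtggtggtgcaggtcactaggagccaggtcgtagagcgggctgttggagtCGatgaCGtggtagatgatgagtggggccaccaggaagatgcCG
Sema4d: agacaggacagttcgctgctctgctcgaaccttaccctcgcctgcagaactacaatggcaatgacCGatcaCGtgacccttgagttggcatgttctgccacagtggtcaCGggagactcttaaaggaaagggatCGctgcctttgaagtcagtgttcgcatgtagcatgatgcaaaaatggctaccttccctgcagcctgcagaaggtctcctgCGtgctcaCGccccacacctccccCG
Mpdu1: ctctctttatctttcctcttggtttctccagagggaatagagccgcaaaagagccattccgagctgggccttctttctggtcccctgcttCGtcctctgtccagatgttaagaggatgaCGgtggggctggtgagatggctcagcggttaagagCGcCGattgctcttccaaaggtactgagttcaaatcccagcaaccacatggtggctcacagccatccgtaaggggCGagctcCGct
Mex3d: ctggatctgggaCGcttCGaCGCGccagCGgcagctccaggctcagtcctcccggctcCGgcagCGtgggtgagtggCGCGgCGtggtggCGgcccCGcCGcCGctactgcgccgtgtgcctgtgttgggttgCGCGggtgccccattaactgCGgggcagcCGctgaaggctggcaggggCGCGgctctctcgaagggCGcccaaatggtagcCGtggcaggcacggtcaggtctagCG
Meiosin: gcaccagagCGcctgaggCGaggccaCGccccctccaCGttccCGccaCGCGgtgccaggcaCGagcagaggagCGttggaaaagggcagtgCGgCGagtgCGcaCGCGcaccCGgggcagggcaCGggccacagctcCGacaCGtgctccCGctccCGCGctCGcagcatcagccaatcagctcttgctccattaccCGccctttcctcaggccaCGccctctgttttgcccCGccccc
In the Kcnj11 stretch 5 of 13 CpGs were mostly 5hmC, over 75 calls. In Sema4d 7 of 11 CpGs were, with no unmodified call among 19, and in Mpdu1 6 of the 8 called CpGs were. The Mex3d stretch holds 28 CpGs, of which 23 were mostly 5mC, and all 25 CpGs of the Meiosin stretch were mostly unmodified, over 59 calls. In the Mpdu1 stretch 27.6% of the 24-base words occur at least 10 times in the genome (chromosomes 1 to 19 and X, both strands), so part of it is repeated sequence, and in the other 4 stretches no word does.

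Most gene-start regions covered no start. A start fell inside 179 regions (19.6%), and 735 covered none. The rule allows midpoints up to 1 kb away and the median length was 304 bp, so it favours regions that cover no start. The share expected from region length alone was not computed. Midpoints lay upstream of the nearest start in 492 regions and at or downstream of it in 422. Relative to the bases available at each distance, regions were most frequent 500 to 750 bp upstream (155 regions, 3.64-fold) and least frequent in the first 250 bp downstream (99 regions, 1.73-fold) and the last 250 bp upstream (109 regions, 1.95-fold). Only 360 regions were within 1 kb of the start of an Ensembl canonical transcript, and the other 554 (60.6%) were at alternative starts, of which introns of the same or another protein-coding gene held 341 (61.6%). Among the 360 at canonical starts, 174 (48.3%) lay outside every protein-coding transcript. For 134 regions the nearest start belongs to a transcript whose 5′ end is tagged in the annotation as not found, so that the true start may lie elsewhere.

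These regions were poorer in CpG than gene starts themselves, though flanks without a region at the same distances were not measured. In windows of 300 bp, the 360 regions at canonical starts had a median of 2.33 CpGs per 100 bp, whereas all 20407 canonical starts, themselves centred in such windows, had a median of 5.00. The starts that had a region within 1 kb were no poorer in CpG than the rest: the 367 canonical starts with a region had a median of 6.33 CpGs per 100 bp at the start itself, and the 20040 without a region had 5.00. A region was present at 251 of the 11576 canonical starts with at least 4 CpGs per 100 bp (2.17%) and at 116 of the 8831 with fewer (1.31%). Over all gene-start regions at their own length, CpG density had a median of 2.27 per 100 bp against 1.71 in the other 12371 regions, GC content was 51.0% against 49.0%, and the median length was 304 bp in both. Within each replicate the median CpG density was higher at gene starts, by 0.33, 0.52 and 0.47 CpGs per 100 bp (0.44 ± 0.10, SD, n = 3). Only 43 regions (4.70%) met a CpG-island definition (over 50% GC, an observed-to-expected CpG ratio over 0.6 and at least 200 bp), against 2.17% of the other regions.

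Of the promoter motifs searched, the GC box was rarer in these regions than at canonical starts, and the E-box was found in similar shares of both. The GC box (GGGCGG, searched on both strands), bound by SP factors, occurred in 11.2% of 300 bp windows centred on gene-start regions, in 8.03% of the other regions and in 47.8% of canonical starts. The E-box CACGTG, which as a palindrome reads alike on both strands, occurred in 6.78%, 6.62% and 7.86% of these windows. In the 360 regions at canonical starts the shares were 13.1% for the GC box and 5.83% for the E-box. The GC box itself contains a CpG, and its frequency was not compared at equal CpG density. A match is a run of letters and not a bound site.

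Few peaks recurred between replicates, at gene starts or elsewhere. Peaks of at least 2 replicates were present in 79 of the 914 regions (8.64%, exact 95% binomial interval 6.90 to 10.7%) and in 5.77% of the other regions (interval 5.37 to 6.20%), and 9 gene-start regions had a peak in all 3. The fold enrichment of the peaks over untreated DNA, as given by the peak caller, had the same median at gene starts and elsewhere in every replicate (4.72, 3.83 and 3.87 in replicates 1, 2 and 3). At this depth the caller returns few distinct values, so equal medians do not show that enrichment was alike.

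Over all gene-start regions, CpGs were divided almost evenly among the 3 states. The 5hmC share of calls was 28.3%, 28.1% and 30.2% in replicates 1, 2 and 3 (28.9% ± 1.15, SD, n = 3), the 5mC share was 36.2% ± 0.949 and the unmodified share 35.0% ± 0.818. In the other regions the unmodified share was lower in every replicate, at 31.0%, 28.2% and 27.5%, and the difference was 6.03 percentage points ± 2.21 (higher at gene starts in 3 of 3 replicates). Both modified states were correspondingly lower, with differences of −2.08, −3.31 and −4.71 points in 5mC and of −1.43, −4.34 and −2.22 points in 5hmC. Among modified calls alone the 5hmC share was 44.4% at gene starts and 44.3% elsewhere, and the difference of 0.03 points ± 1.36 changed sign between replicates. These differences leave out 13 regions, none at a gene start, with a CpG of 20 or more calls. With those kept, the differences were 11.02 points ± 2.96 in unmodified C, −15.6 points ± 9.64 in 5mC and, in the opposite direction, 4.601 points ± 6.79 in 5hmC.

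With 3 replicates the two-sided exact permutation test over the 8 sign flips cannot give a p below 0.25, so none of the 46 comparisons computed here can pass 0.05. The differences in unmodified C, 5mC and 5hmC reached that smallest exact permutation value (p = 0.25, Benjamini-Hochberg adjusted p = 0.397 for each). The difference in 5hmC depended on which sites were counted: restricted to sites inside the peaks of the same replicate it was 0.13 points ± 5.86, and that in unmodified C was 3.30 points ± 7.12. Under this restriction replicate 1 had the opposite sign in unmodified C (−4.91 points, against 7.59 and 7.24 in replicates 2 and 3). Of the gene-start calls of replicate 1 only 786 of 3912 lay in its own peaks, against 6734 of 7752 and 5110 of 6457 in replicates 2 and 3. At sites with at least 3 calls the replicates disagreed in sign in all 3 states. The difference in unmodified C was −8.90, 4.91 and 4.24 points (mean 0.08 ± 7.79), that in 5mC averaged −0.29 points ± 4.35 and that in 5hmC 0.21 points ± 4.29.

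**Figure D1:**
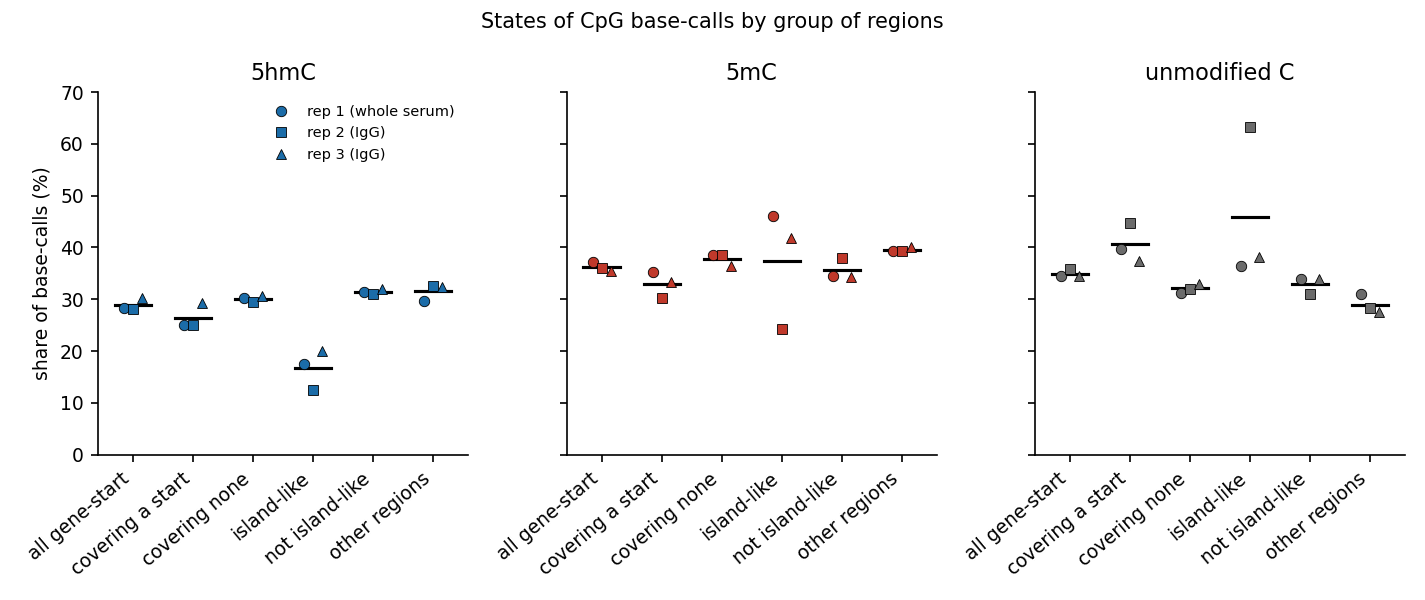
Share of CpG base-calls (%, y axis) called 5hmC, 5mC or unmodified C in 6 groups of regions, with 1 point for each replicate and the mean as a bar (n = 3). Island-like gene-start regions stand lowest in 5hmC in all 3 replicates, and all gene-start regions stand above the other regions in unmodified C.

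The excess of unmodified C was seen in matched gene parts and in regions of low and moderate CpG density. In introns, gene-start regions had 33.5% unmodified calls against 25.7% in the other intronic regions, a difference of 7.82 points ± 1.18, and the differences in 5mC were −6.81, −4.03 and −5.57 points. In coding exons the difference in unmodified C was 3.73 points ± 1.60. The matched differences in 5hmC were −2.35 points ± 0.931 in introns and −1.68 points ± 0.467 in coding exons, lower at gene starts in 3 of 3 replicates. In regions with under 1 CpG per 100 bp, the unmodified share at gene starts was 41.8%, 28.8% and 33.6% against 23.3%, 21.4% and 22.3%, from 55, 184 and 113 calls at gene starts. From 1 to 2 CpGs per 100 bp the difference was 4.47 points ± 2.67, and from 2 to 4 it was 6.25 points ± 1.87. In all of these the unmodified share was higher at gene starts in 3 of 3 replicates (p = 0.25, the smallest possible in this exact permutation test). In regions with 4 or more CpGs per 100 bp the replicates disagreed in sign (−6.90, 11.2 and −1.93 points).

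The 5hmC share followed CpG density both at and away from gene starts. At gene starts it was 38.7% ± 2.67 under 1 CpG per 100 bp, 36.2% ± 2.57 from 1 to 2, 30.4% ± 0.820 from 2 to 4 and 22.2% ± 2.58 at 4 or more. The other regions had 38.5%, 36.2%, 32.2% and 21.8% in the same classes. From 2 to 4 CpGs per 100 bp, 5hmC was lower at gene starts in 3 of 3 replicates (−2.24, −2.49 and −0.68 points). In each of the other classes the replicates disagreed in sign. Compared within density class, weighted by the calls at gene starts, 5hmC differed between gene-start and other regions by −0.72 points ± 1.55, and the replicates disagreed in sign (0.55, −2.45 and −0.28; p = 0.75 by the exact permutation test).

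**Figure D2:**
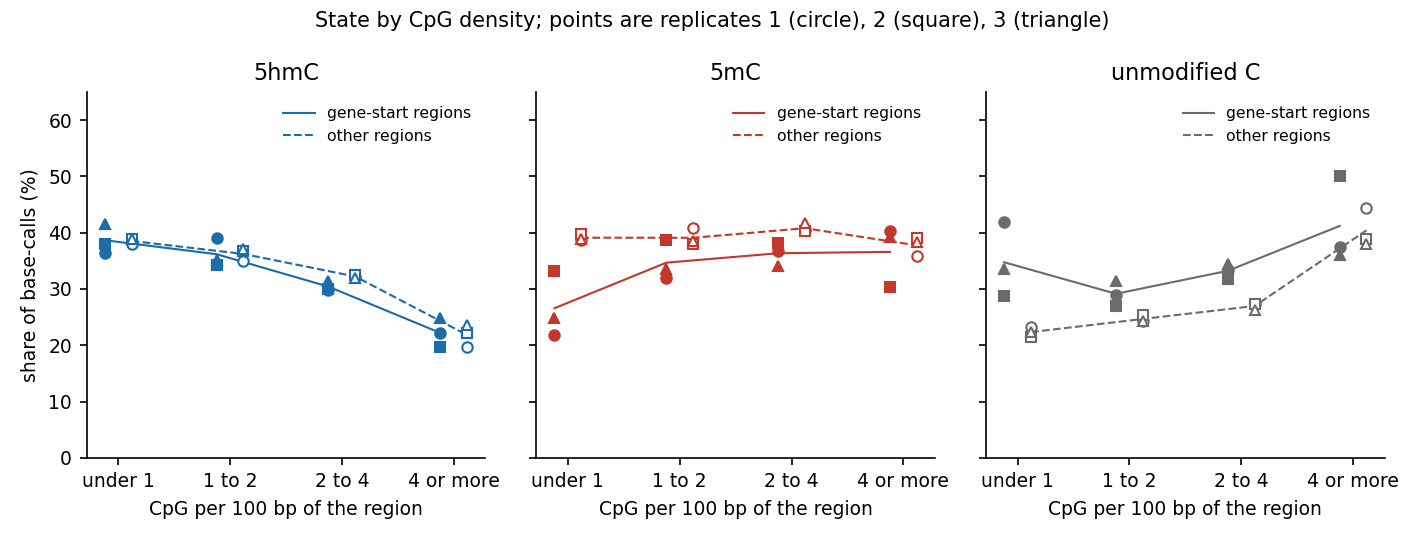
Share of base-calls (%, y axis) in each state by CpG density of the region (CpGs per 100 bp, x axis), for gene-start regions (filled, solid line through the means) and other regions (open, dashed line), with 1 point for each replicate. Unmodified C at gene starts lies above the other regions in every replicate below 4 CpGs per 100 bp, whereas the 5hmC means of both kinds of region fall together with density.

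Unmodified C was more frequent close to the start itself, and both modifications less frequent. CpGs within 250 bp of the nearest start were unmodified in 40.8%, 49.5% and 38.1% of calls, and those 500 to 1000 bp away in 30.4%, 29.3% and 31.8% (difference 12.3 points ± 7.14, higher near the start in 3 of 3 replicates). The 5hmC share near the start was 25.9% against 31.1% farther away (−5.24 points ± 3.69), and 5mC was 31.3% against 38.4% (−7.11 points ± 3.65). Each of these differences had the smallest p this exact permutation test allows (p = 0.25). The comparison in unmodified C was added after the data had been seen. Near and far sites were not compared at equal CpG density. Without replicate 2 the difference in 5hmC was −3.11 points. As the mean of the shares of single regions it was −2.56 points ± 3.00, with replicate 1 of the opposite sign, and at sites with at least 3 calls it was −6.54 points ± 8.17, also lower in 2 of 3 replicates. At those sites the difference in unmodified C was 13.4 points ± 13.95, with replicate 3 of the opposite sign (−1.74 points). The 5hmC share of modified calls was 45.2% near and 44.8% far, a difference of 0.40 points ± 1.46. For canonical starts alone, likewise chosen after seeing the data, the difference in unmodified C was 24.5 points ± 8.56 and that in 5hmC −10.5 points ± 6.27.

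In 250 bp bins, the unmodified share was 44.8% ± 5.99 in the last 250 bp upstream and 40.9% ± 8.43 in the first 250 bp downstream. It was 36.7% ± 2.75 and 38.7% ± 2.31 in the next 2 downstream bins, and 33.3% ± 1.55 and 27.6% ± 1.24 in the matching upstream bins. In replicate 3 the downstream shares were 31.9%, 36.8% and 41.0% going outward to 750 bp, and so not highest beside the start. In the outermost bins the mean unmodified share was 27.8% ± 1.40 upstream and 25.4% ± 1.83 downstream, where 5hmC reached 33.1% ± 1.63 and 34.8% ± 3.00. Summed over all CpGs within 1000 bp, downstream and upstream sites differed by −1.49 points ± 1.60 in 5hmC and 2.60 points ± 3.53 in unmodified C, and in both the replicates disagreed in sign.

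**Figure D3:**
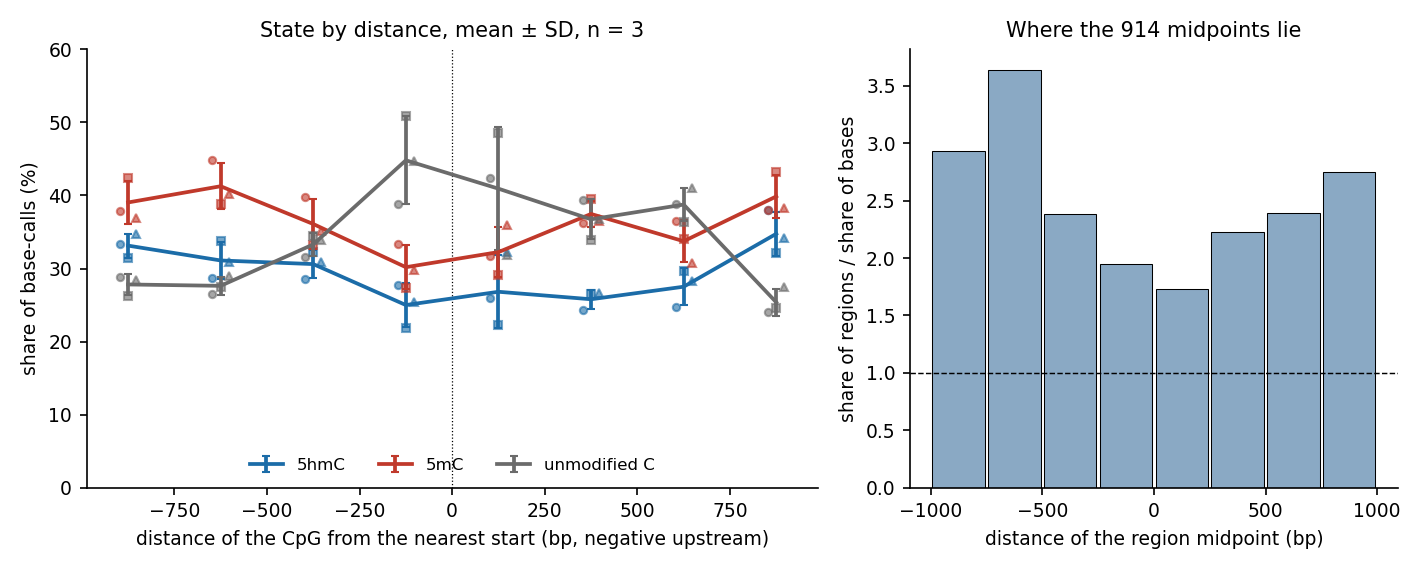
Left, share of base-calls (%, y axis) in each state in 250 bp bins of the distance of a CpG from the nearest start (bp, negative upstream), as mean ± SD of 3 replicates with each replicate as a point. Right, share of all regions with their midpoint in each bin divided by the share of bases in it. Mean unmodified C peaks beside the start at 44.8% and 40.9%, though not downstream in replicate 3. Regions are least frequent there (1.95-fold and 1.73-fold).

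Regions that covered a start had more unmodified C than those that only flanked one, with 40.6% ± 3.71 against 32.1% ± 0.897. Their 5hmC share was 25.05%, 25.11% and 29.26% in the 3 replicates, against 30.3%, 29.5% and 30.6% in the flanking regions. The difference was −3.66 points ± 2.02 and had the same sign in 3 of 3 replicates. Regions that covered a start were also denser in CpG (median 2.59 against 2.12 per 100 bp), and the 2 groups were not compared at equal density. Regions at canonical starts had 38.6% ± 3.15 unmodified calls and those at alternative starts 32.9% ± 0.826 (difference 5.67 points ± 3.94, 3 of 3 replicates, and 3.48 points without replicate 2), while 5hmC was 27.8% and 29.5% with replicates that disagreed in sign.

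The 43 island-like regions were the poorest in 5hmC. Their 5hmC share was 17.5%, 12.5% and 20% in replicates 1, 2 and 3, against 31.5%, 30.9% and 31.9% in the other gene-start regions, a difference of −14.7 points ± 3.32. The groups did not overlap. They were not simply unmodified: their unmodified share was 36.4%, 63.2% and 38.2%, and their 5mC share 46.1%, 24.3% and 41.8%, so replicates 1 and 3 had more 5mC there than in the other gene-start regions and replicate 2 had less. The difference in unmodified C from the other gene-start regions was 12.98 points ± 16.6 and rested on replicate 2, without which it was 3.40 points. Island-like regions away from gene starts had 20.7% ± 2.19 5hmC, and the difference of gene starts from them was −4.05 points ± 2.36 (lower in 3 of 3 replicates, p = 0.25 by the exact permutation test). Of the 41 island-like regions at gene starts with at least 10 calls, 19 (46.3%) had more than 50% unmodified calls, 13 (31.7%) more than 50% 5mC and 1 more than 50% 5hmC.

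Single regions ranged over nearly the whole scale of 5mC and unmodified C but not of 5hmC. Among the 541 with at least 10 calls the 5hmC share had a median of 28.6% (quartiles 17.6 and 40.0%) and a maximum of 80%. More than 50% of calls were 5hmC in 58 regions (10.7%), 5mC in 131 (24.2%) and unmodified C in 114 (21.1%). Of the other 5500 regions with as many calls, 14.3% had a majority of 5hmC, 29.4% of 5mC and 12.9% of unmodified C. Shares agreed only loosely between replicates in regions with at least 10 calls in each of both: across regions, which are not independent replicates and hold few calls each, Pearson's r of the 5hmC share was 0.31 for replicates 1 and 2 (n = 73 regions), 0.25 for 1 and 3 (n = 57) and 0.23 for 2 and 3 (n = 83).

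Regions with a peak in all 3 replicates numbered 9 and, named by the gene with the nearest start, included those at Kcnj11, Tnrc18, Dpm1, Gtpbp6, Prox1, Tppp3, Nkain1 and Lpp. Of those named, Kcnj11, Nkain1 and Lpp were at canonical starts, and those of Prox1, Nkain1 and Lpp lay outside every protein-coding transcript. The nearest start was not always that of the gene holding the region: the midpoint of the Dpm1 region is in a coding exon of Mocs3, and that of the Tppp3 region in an untranslated exon of Zdhhc1.

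Kcnj11 encodes the pore subunit of the ATP-sensitive potassium channel. Its region (chr7:45748146-45749562, 473 bp downstream of the canonical start) had the highest fold enrichment of any gene-start region in replicate 1, and its peaks were 8.50-, 7.66- and 6.78-fold enriched. The 5hmC share was 27.9%, 48.2% and 63.2% in replicates 1 to 3, over 129, 85 and 68 calls, and the intervals of replicates 1 (20.4 to 36.5%) and 2 (37.3 to 59.3%) did not overlap.

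The region with the most calls of all was at Nrxn2, which encodes a presynaptic adhesion protein (chr19:6477782-6478844, 13.1 CpGs per 100 bp). This region had a peak in replicates 2 and 3 only. It was 53.9%, 62.4% and 57.3% unmodified and 11.8%, 8.55% and 18.5% 5hmC, over 102, 117 and 178 calls. Unmodified C was therefore the most frequent state there in every replicate.

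Tnrc18, which encodes a chromatin protein, had similar shares in the 3 replicates, with 24.2%, 33.3% and 34.0% 5hmC over 66, 57 and 100 calls. At Prox1, a homeodomain transcription factor gene, the 5hmC share was 55.1%, 34.1% and 18.2% over 49, 44 and 22 calls, and the intervals of replicates 1 (40.2 to 69.3%) and 3 (5.19 to 40.3%) met only at their edges. At Tppp3, from a family that promotes tubulin polymerisation, it was 37.0%, 29.4% and 37.2% over 27, 34 and 43 calls. The Dpm1 region, near the start of a gene for a subunit of mannosyl phosphoryl dolichol synthase, had 19.7%, 70.6% and 22.4% over 76, 17 and 67 calls, so replicate 2 stood apart. Gtpbp6 had 42.1%, 26.9% and 27.0% over 19, 26 and 89 calls. Nkain1 and Lpp had 18 and 17 calls in all.

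Others among the 10 regions with the most calls included those of ion channel and synaptic genes. At Shank3, which encodes a postsynaptic scaffold protein, 5hmC was 35.4%, 38.9% and 29.6% over 65, 18 and 142 calls. At Grm4, a metabotropic glutamate receptor of granule cell terminals, it was 32.4%, 27.5% and 11.9% over 34, 40 and 84 calls. Of all calls there 62.7% were unmodified, but the replicates differed, with 58.8%, 27.5% and 81.0%. In replicate 2 the most frequent state at Grm4 was 5mC (45%). Phldb1 had 8.33%, 23.9% and 28.4% over 36, 67 and 95 calls. The Clcn4 region, at a chloride and proton exchanger gene, was 70.5% 5mC over 146 calls from replicates 1 and 3.

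**Figure D4:**
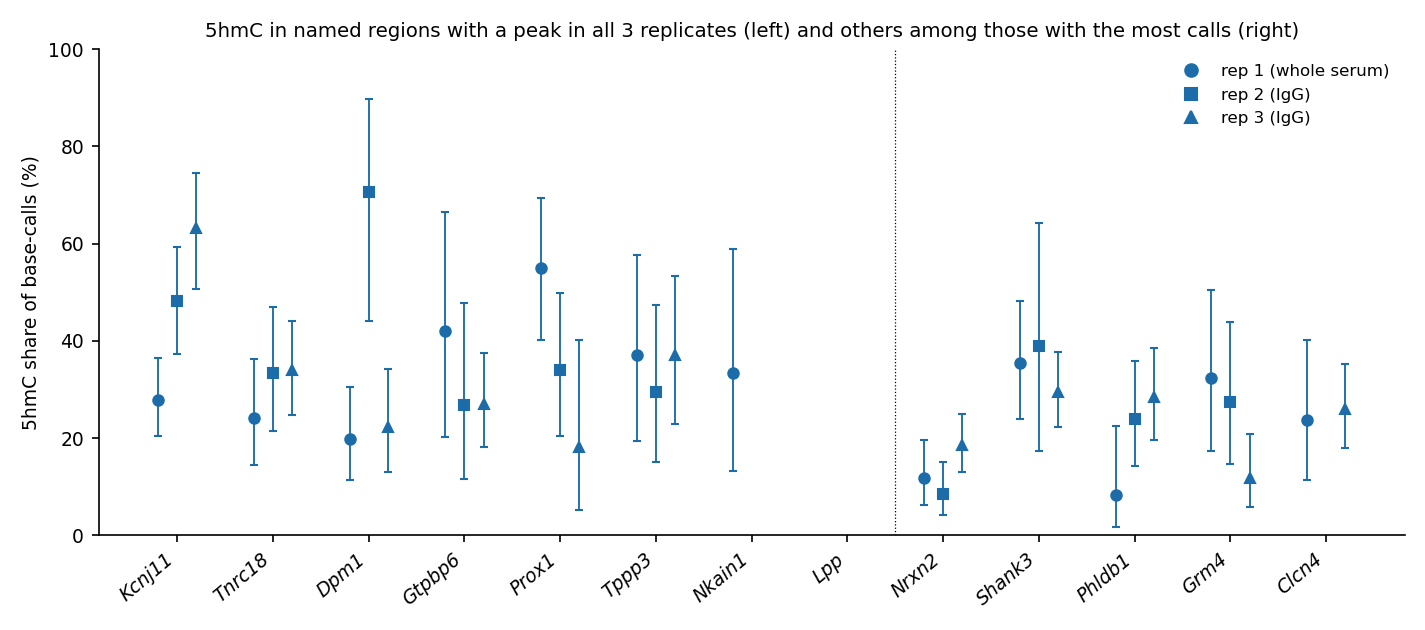
5hmC share of base-calls (%, y axis) for the named regions with a peak in all 3 replicates, left of the dotted line, and the others named for having the most calls, right of it. Points are replicates with at least 10 calls and bars are exact 95% binomial intervals. Kcnj11 runs from 27.9% to 63.2%, Tnrc18 and Tppp3 stay within overlapping intervals, and Nrxn2 lies below 20% in every replicate.

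Regions at the ends of each scale were picked for their shares, among those with at least 20 calls, and are therefore described without a test. Sema4d, a semaphorin that acts in axon guidance, had the highest 5hmC share (17 of 22 calls, 77.3%), at 83.3%, 83.3% and 70% in the 3 replicates and with no unmodified call. Foxn2 (70.8% of 24), Rab15 (69.6% of 23), Ankrd13b (69.2% of 26) and Mpdu1 (65% of 20) came next. In Mpdu1, needed for the use of dolichol-linked mannose in glycosylation, the share was 50.0%, 66.7% and 83.3% over 8, 6 and 6 calls. These 5 regions had between 1.30 and 3.31 CpGs per 100 bp and none was island-like. Of the 24-base words of the Foxn2, Rab15 and Mpdu1 regions 34.7%, 20.7% and 21.5% occur at least 10 times in the genome, so these regions hold repeated sequence. Sema4d and Ankrd13b hold no such word. Among all 914 regions 242 (26.5%) hold at least 1, and in 8 over 50% of words are repeated.

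The regions with the highest 5mC share were at Etnk2 (87.0% of 23 calls), Epn1 (86.4% of 22), Tmem185b (85.7% of 21), Mex3d (83.5% of 79) and Zfp358 (81.2% of 69). The Tmem185b, Mex3d and Zfp358 regions are island-like, and those of Etnk2 and Epn1 are not. The Mex3d region, with 8.33 CpGs per 100 bp, was 88.2% 5mC in replicate 1 and 80% in replicate 3. Those most unmodified were at Dpf1 (all of 27 calls, all from replicate 2), Rmdn2 (98.5% of 67), Tiam1 (92.0% of 25), Meiosin (90.8% of 141) and a second region of Clcn4 (90.3% of 31), all 5 island-like. Meiosin, needed for entry into meiosis in the germ line, was 97.0% unmodified in replicate 1 and 88.9% in replicate 2. The 2 Clcn4 regions, chr7:7299758-7300470 and chr7:7300701-7301004, lie beside each other, the first 4.11% and the second 90.3% unmodified, and 26.5% and 71.9% of their words are repeated in the same sense. In fold enrichment the highest after Kcnj11 were Itpk1 (7.55-fold) and Kdm8 (6.61-fold) in replicate 1, and Kcnc1 (7.06-fold) was among the highest in replicate 2.

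The members just inside and just outside the 1 kb limit were the regions at Wscd2, at 1000 bp and with a single call, and at Derl1, at 1001 bp and with 10 of 12 calls unmodified.

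Of 20428 protein-coding genes on these chromosomes, 849 (4.16%) had a region within 1 kb of some start. Among lists of genes related to the cerebellum or to DNA methylation, the share was highest for glutamate receptor and scaffold genes, calcium and sodium channel genes and granule cell genes. It was also above the overall share for chromatin, synaptic adhesion, axon guidance, respiratory chain and potassium channel genes, and below it for GABA receptor, protocadherin, olfactory receptor, developmental, ribosomal protein and imprinted genes. The Purkinje cell and glia lists lay beside it. These counts describe the lists and were not tested, and their order depended on the rule. The share of all protein-coding genes with a region fell from 4.16% to 1.968% within 500 bp and to 1.797% with canonical starts only. A lower count under these rules is therefore not particular to a list. Granule cell genes with a region fell from 3 to 1 within 500 bp and to 0 with canonical starts only. Glutamate receptor and scaffold genes fell from 6 to 3 and 2, and calcium and sodium channel genes from 5 to 4 and 2. Within 500 bp synaptic adhesion genes, with 4 of 46, stood above glutamate receptor and scaffold genes, with 3 of 39. Genes with a region had more annotated starts (a median of 4 against 2) and were longer (33.06 kb against 19.01 kb), and these properties also differ between lists.

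Among 39 glutamate receptor and scaffold genes 6 had a region (15.4%): Shank3, Dlgap3, Grm4, Grin2a, Shank1 and Gria2. Dlgap3, a scaffold protein that binds the SHANK family, had 80 calls in the most covered of its regions, with 35.0% 5hmC in replicate 2 and 17.5% in replicate 3. Grin2a, an NMDA receptor subunit, had 24.5% of 49 calls in replicate 2. Calcium and sodium channel genes had 5 of 38 (13.2%), among them Cacna1a, Cacna1e, Scn2b and Scn8a. Cacna1a, the P/Q-type channel of Purkinje and granule cells, had 17.6% 5hmC and 64.7% 5mC of 17 calls. At Scn2b, a sodium channel auxiliary subunit, 39.1% of 23 calls were 5hmC. Potassium channel genes had 4 of 64 (6.25%), among them Kcnj11, Kcnc1 and Kcnk10, and synaptic adhesion genes 4 of 46 (8.70%), among them Nrxn2, Ptprs and Flrt1. Axon guidance genes had 5 of 67 (7.46%): Sema4d, Sema6d, Ephb3, Efna2 and Ntng1. None of the 25 GABA and glycine receptor genes had a region.

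Granule cell genes had 3 of 24 (12.5%), Tiam1, Rbfox3 and Vsnl1, of which only Tiam1 had over 10 calls. Purkinje cell genes had 1 of 24 (4.17%), Ebf2, and glia genes 1 of 24 (4.17%), Hopx. The DNA methylation and chromatin genes had 6 of 66 (9.09%): Chd7, Mbd6, Nsd1, Dnmt3a, Chd8 and Setd2. Chd7, a chromatin remodeller that acts in granule cell precursors, was near 3 regions, and the richest in calls was 38.6% 5hmC of 70. Dnmt3a, a de novo DNA methyltransferase, had 4 of 7 calls as 5hmC. Genes of the citric acid cycle and respiratory chain had 3 of 46 (6.52%), Ogdh, Ndufs8 and Ndufv2. The Ogdh region was 79.1% unmodified over 43 calls. Lists below the overall share were cytosolic ribosomal protein genes (1 of 76, Rps10), developmental transcription factor genes (1 of 90, Foxp1), imprinted genes (1 of 44, Ppp1r9a), olfactory receptor genes (1 of 1125, Or13j1) and protocadherin cluster genes (0 of 58).

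**Figure D5:**
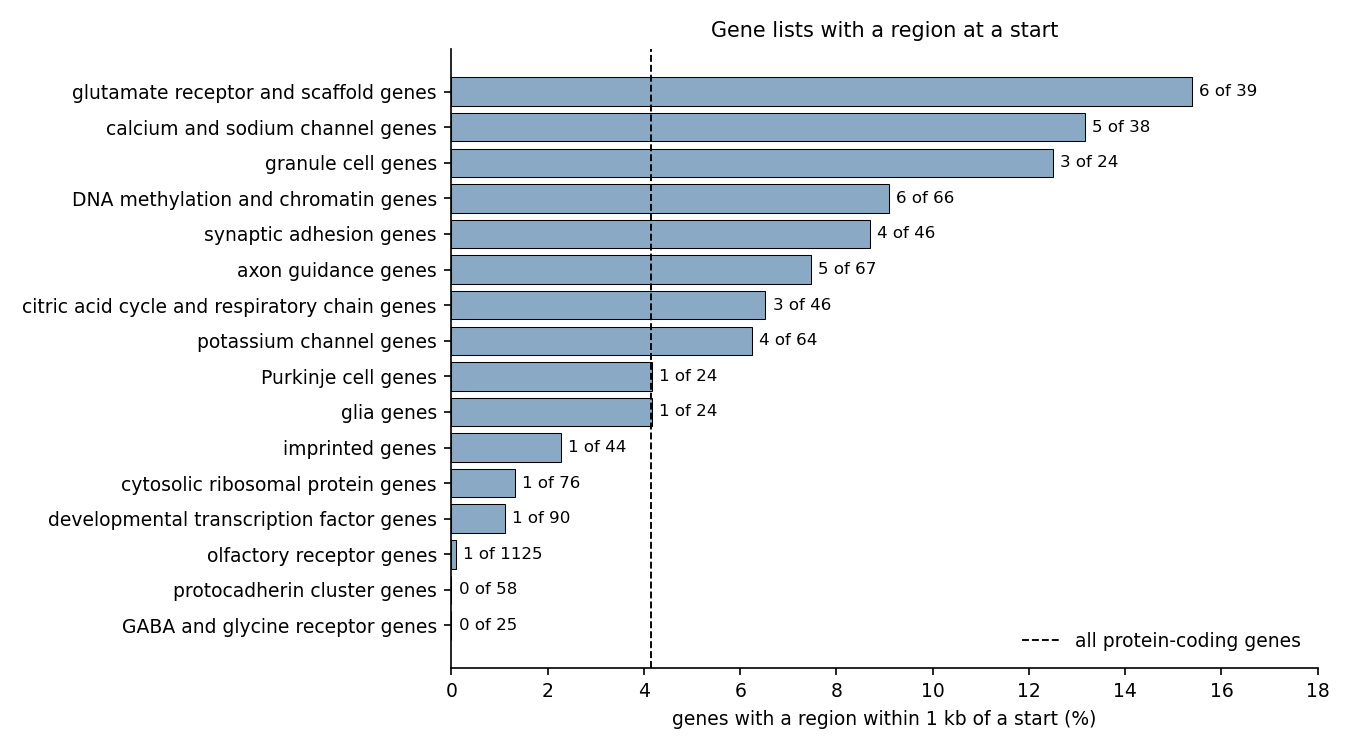
Share of the genes of each list (%, x axis) with a merged region within 1 kb of a start, with the number of genes beside each bar and the share of all protein-coding genes as a dashed line. Glutamate receptor and scaffold genes stand at 6 of 39 and olfactory receptor genes at 1 of 1125.

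Genes with a region at a start more often had further regions along the gene. Another region lay in the gene body of 396 of these 849 genes (46.6%) and of 17.4% of the 19579 genes without one. Both shares were larger in longer genes. They were 22.2% and 6.50% under 20 kb, 49.9% and 21.8% from 20 to 100 kb, and 83.7% and 52.2% above 100 kb, so the order was the same in each length class. The nearest genes of the 914 regions were 820 in number, of which 74 were nearest to at least 2 regions and Pacsin1, a gene for a protein that bends membranes at synapses, to 5. Starts of at least 2 genes lay within 1 kb of 30 regions, and in 25 regions starts on both strands did.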

How the data were processed

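Peak lists and CpG base-call counts of 3 hMeDIP replicates, grouped by the replicate number in their titles, were analysed as deposited. The authors base-called with Dorado, aligned with minimap2 to mm39 (GRCm39, the build of the reference used here), and called narrow peaks with MACS2 on each replicate against untreated DNA. The deposited lists give a fold enrichment (a ratio), the −log10 of p- and q-values and a display score for each peak. The authors made the deposited counts with modkit. They give counts per state and CpG, all listed on the forward strand. Whether reverse-strand calls were combined onto it is not given in the sources used here, so a count may cover a single strand or both. The deposited percent values, not used here, are the share of a modification in those counts. Exclusion of masked repeats, stated in the methods, was not checked against a repeat annotation, since the reference used here is not masked. Exact copies of 24-base words were counted in the genome instead.

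A share is the summed calls of a state over the summed calls of all 3 states in merged regions. Calls of a replicate were counted whether or not it had a peak of its own in the region. In comparisons 13 regions with a CpG of 20 or more calls in a replicate, none at a gene start, were left out. Differences were taken within replicates, and a two-sided exact permutation test enumerated all 8 sign flips, with Benjamini-Hochberg adjustment over 46 comparisons. Intervals are exact Clopper-Pearson intervals at 95%. The functions were tested on simulated data. pandas 2.3.3, scipy 1.17.1 and pysam 0.24.0 were used.

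Named were regions with a peak in all 3 replicates, the 10 with the most calls, the top 5 by each state among those with at least 20 calls, the top 3 by fold enrichment in each replicate, up to 4 genes of each of 16 lists and those beside the 1 kb limit; further list genes are named to complete their counts. Some regions that meet this rule are not reported here. Members, lists and tests were chosen with earlier results of these data known.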

Additional observations from a re-analysis of the deposited data

How the results depend on the processing

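The count of 914 regions followed the rule: it was 419 within 500 bp, 1712 within 2 kb, 360 with canonical starts only and 180 where the region overlaps a start. Genes of all lists with a region numbered 42, 25 within 500 bp and 14 with canonical starts only. The share of all protein-coding genes with a region was 4.16%, 1.968% and 1.797% under the same 3 rules. The higher unmodified C at gene starts and the lower 5mC kept their direction in 10 of 11 alternatives, though not their size: they were 0.08 and −0.29 points at sites with at least 3 calls, and 11.02 and −15.6 with the high-depth regions kept. The exception was CpG sites with at least 5 calls, of which gene starts held 14: there the differences were −23.8 points in unmodified C, 18.3 in 5mC and 5.497 in 5hmC, with 3.96 for 5hmC within density class and, from replicate 2 alone, 28.6 for downstream minus upstream 5hmC. At sites with at least 3 calls, 5hmC differed by 0.21 points between gene-start and other regions, 1.196 within density class and 4.53 between canonical and alternative starts. Restricted to a replicate's own peaks these were 0.13 and 1.55, and with the high-depth regions kept 4.601 and 5.04. Among alternatives chosen after seeing the data, the 5hmC difference of all gene-start regions was 1.85 points against other regions in coding exons only, −6.01 against those in introns only (like for like it was −1.68 and −2.35), and 0.032 of modified calls, where that by distance was 0.40. The cause of these reversals was not tested. Lower 5hmC in island-like regions kept its direction in 10 of 10 alternatives (−16.2 to −12.8 points). Keeping the high-depth regions could not alter it, since none is at a gene start. Leaving out 1 replicate could not reverse it, nor the differences of gene starts in unmodified C and 5mC, since all 3 replicates agreed in sign. With 1 replicate left out at a time, 5hmC within density class ranged from −1.36 to 0.14 points, and of the 46 differences 12 changed sign, in each of which the replicates disagreed. The fold enrichment difference was −0.0049 within 500 bp. A median of 1 call per CpG limits every value for single sites and regions.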

Other observations

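Chromosome X, which the comparisons leave out, held 3 gene-start regions among 46 regions. Only replicate 2 had peaks in these 3 regions. In replicates 1 and 2, 95.7% of 46 calls and 94.8% of 58 calls there were 5mC and none was unmodified. The 5hmC calls numbered 2 and 3 (exact 95% binomial intervals 0.531 to 14.8% and 1.08 to 14.4%). Replicate 3 had a single call there, which was 5hmC.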
